A study of Bos taurus with 9 samples.

Results

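Butyrate treatment of MDBK cells was followed by 2085 long H3K9me3 peaks at sites where the control library had no H3K9me3 peak, on chromosomes other than 5, 14 and 18. They were chosen by their length and by the control H3K9me3 list: a peak was counted when it came from the butyrate H3K9me3 library, spanned at least 500 bp and shared not even 1 bp with a control H3K9me3 peak. They were 2.90% of the 71847 butyrate H3K9me3 peaks on the 27 chromosomes used (26 autosomes and X), out of 89487 in that list and 673926 in the 8 lists of the study. MDBK is an established epithelial line from bovine kidney, and the study set untreated cells against cells given 5 mM butyrate for 24 h. Each condition was profiled by ChIP-seq with antibodies to H3K9ac, H3K27ac, RNA polymerase II (Pol II) and H3K9me3, with 1 library for each antibody and condition and 1 input library, which was not analysed here. All control libraries ran on lane 4 and all butyrate libraries on lane 5, so lane and treatment cannot be told apart. With 1 library per group no difference had a replicate check and no test between conditions was possible. The 95% intervals given below cover counting error only, and neighbouring peaks are not independent of one another.

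Trimethylation of lysine 9 on histone H3 is laid down by the enzymes SUV39H1, SUV39H2 and SETDB1 and is bound by HP1 proteins, and it is best known from silent repeats, centromere-near chromatin and clusters of zinc finger genes. One lysine 9 cannot carry an acetyl group and a trimethyl group at the same time, whereas H3K27ac sits on a different residue and marks active promoters and enhancers. Butyrate, which microbes of the rumen produce from feed, inhibits histone deacetylases, the enzymes that remove such acetyl groups.

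The rule fixed the length and the absence of a control H3K9me3 peak, so these features describe the peaks and are not findings. Their length ran from 500 to 1877 bp with a median of 592 bp (interval, 586 to 599), and 86 of them reached 1000 bp. Together they covered 1340 kb, or 7.02% of the bases under butyrate H3K9me3 peaks on the 27 chromosomes. Of the 2433 butyrate H3K9me3 peaks of at least 500 bp there, 85.7% were new and 348 met a control peak. The 67411 new peaks shorter than 500 bp, which came from the same library and the same chromosomes, served as the group for comparison. With the 2085 long new peaks they made up most of the 71847 butyrate H3K9me3 peaks. Being new was thus common in the whole list, and less so among long peaks. Just inside the length limit, 17 new peaks of 500 bp lay at a median of 15.1 kb from the nearest butyrate H3K27ac peak, and just outside it the 13 new peaks that were 1 bp shorter lay at 4.27 kb. The lists held between 18238 peaks (control H3K9me3) and 166348 peaks (butyrate H3K27ac) on the 27 chromosomes, and covered between 0.183% and 2.99% of them. Read depth was not used here, and since a peak list counts DNA from a whole culture, more cells with a mark and more mark per cell cannot be told apart.

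Long new peaks were found on each of the 27 chromosomes, at a density of 0.873 per Mb. Chromosome 25, one of the shortest, had the highest density, with 64 peaks and 1.49 per Mb (Poisson interval, 1.15 to 1.90), which was 1.71 times that of all 27 chromosomes. Chromosomes 15 and 7 followed with 1.25 per Mb (1.03 to 1.52) and 1.17 per Mb (0.981 to 1.39), and these 3 intervals overlap. The X chromosome had the lowest density, with 49 peaks and 0.329 per Mb (0.244 to 0.435). Chromosome 27 had the lowest density among autosomes, with 24 peaks and 0.529 per Mb (0.339 to 0.787), and its interval overlaps those of chromosomes 12 and 29.

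**Figure D1:**
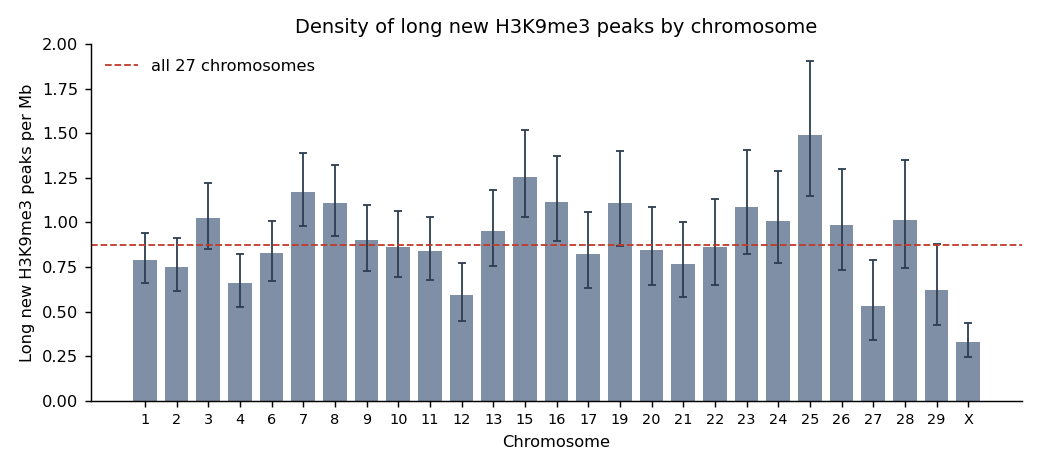
Bars give the long new H3K9me3 peaks per Mb on each chromosome, error bars the 95% Poisson interval and the dashed line the density of all 27 chromosomes, 0.873 per Mb. Chromosome 25 is highest at 1.49 and the X chromosome lowest at 0.329.

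The order was in part different when set against the number of H3K9me3 peaks called on each chromosome. On the X chromosome the long new peaks were 3.52% of its butyrate H3K9me3 peaks (interval, 2.67 to 4.62), and the 2.90% of all 27 chromosomes lies inside this interval. Only 1394 butyrate H3K9me3 peaks of any length were called there. Chromosome 25 stood above the background on this scale too, at 4.43% (3.48 to 5.61), and chromosome 27 stood below it at 1.53% (1.03 to 2.27). Across the 26 autosomes the density of long new peaks rose with that of butyrate H3K27ac peaks, with a Pearson r of 0.47 and a Spearman rho of 0.55. With butyrate H3K9ac peaks r was 0.38 and rho 0.49, and with butyrate H3K9me3 peaks of any length r was 0.54 and rho 0.55. These correlations describe 26 chromosomes of the same libraries, which share gene density and base composition, and carry no test.

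Most long new peaks had no other long new peak within 10 kb, although all but 395 had another butyrate H3K9me3 peak of some length that near. When peaks at most 10 kb apart were joined, 1701 were lone and 384 (18.4%; interval, 16.8 to 20.1) fell into 167 clusters, of which 135 held 2 peaks and 32 held 3 or more. In windows of 1 Mb, 1103 of 2404 windows (45.9%) held at least 1 long new peak, 601 of them exactly 1, and 56 held 5 or more. Coordinates are those of the cattle build UMD3.1, and which genes or repeats lie there was not analysed here. The fullest window, chr17:45000001-46000000, held 17 long new peaks among 127 butyrate and 18 control H3K9me3 peaks. It held 8 control and 21 butyrate H3K9ac peaks, fewer than the means of 26.9 and 42.4 per Mb over the 27 chromosomes. The next window, chr19:6000001-7000000, held 12 and was richer than the mean, with 78 control and 61 butyrate H3K9ac peaks. The remaining windows of the 5 fullest, chr22:16000001-17000000, chr7:22000001-23000000 and chr16:80000001-81000000, held 11 each. Butyrate H3K27ac peaks numbered 98, 131 and 15 in these windows, against a mean of 69.7 per Mb, so windows rich and poor in acetylation were both among the fullest.

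**Figure D2:**
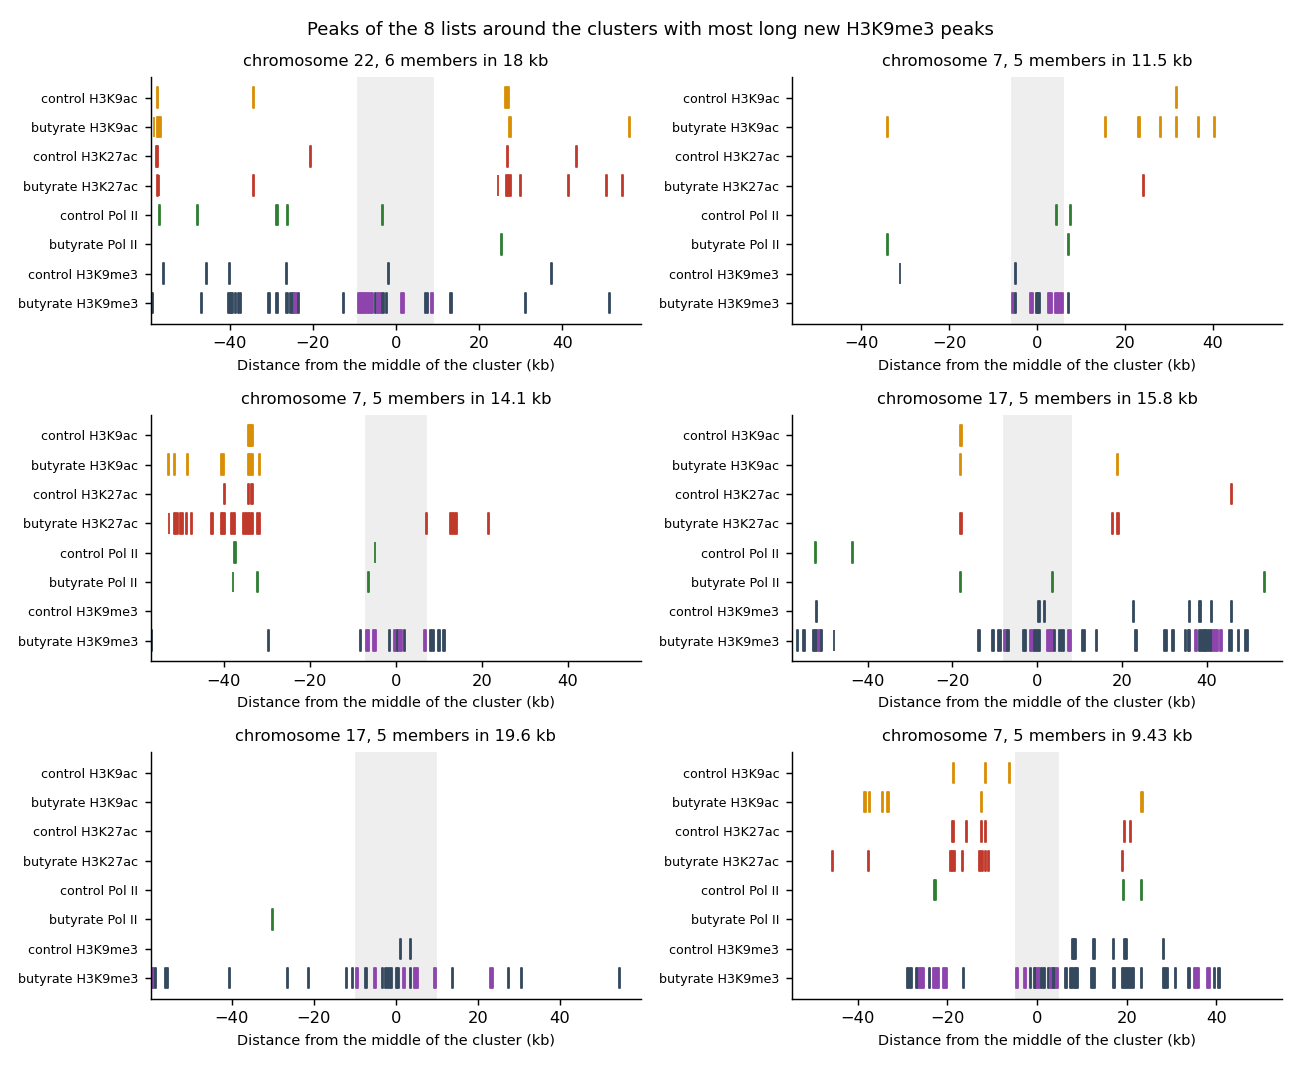
Each panel shows the peaks of the 8 lists, 1 row per list, around 1 of the 6 clusters with most long new H3K9me3 peaks, with long new peaks in purple, all other peaks in the colour of their mark and the cluster shaded. The horizontal axis is the distance in kb from the middle of the cluster, and the shaded clusters hold no acetyl peak apart from 1 of butyrate H3K27ac.

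The largest cluster, chr22:16518964-16536973, packed 6 long new peaks of 523 to 1257 bp into 18010 bp, and 5142 bp of this stretch was under them. It held 11 butyrate H3K9me3 peaks in all against 1 in control, and no acetyl peak of either condition. The nearest butyrate H3K9ac peak lay 18.3 kb and the nearest butyrate H3K27ac peak 15.4 kb away. A tie at 5 members brought a further 5 clusters into the named set, at chr7:62638823-62650357, chr7:41147957-41162069, chr17:45012717-45028526, chr17:45213731-45233286 and chr7:22070354-22079785. Inside these 5 clusters butyrate H3K9me3 peaks numbered 8, 8, 13, 13 and 12, against 1, 0, 2, 2 and 0 in control. No cluster of the 6 contained an H3K9ac peak in either condition, and 1 contained an H3K27ac peak, at chr7:41147957-41162069 after butyrate. The clusters spanned only 9432 to 19556 bp each. Mean H3K9ac density over the 27 chromosomes was 26.9 peaks per Mb in control and 42.4 after butyrate. Spans this short can hold none at such a density, and whether the clusters lacked acetyl peaks beyond that was not tested. With 50 kb added on each side, 5 of the 6 clusters had H3K9ac peaks in both conditions. The cluster at chr17:45213731-45233286 was the exception, with no acetyl peak in that space and the nearest one 106 kb away.

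The 10 longest peaks ranged from 1405 to 1877 bp and came from 8 chromosomes, with 3 of them on chromosome 7. The longest of all, chr25:34269592-34271468 (1877 bp), was overlapped by a control Pol II peak and by no acetyl peak, and its nearest acetyl peak, of butyrate H3K9ac, lay 8.45 kb away. The second, chr23:3801877-3803653 (1777 bp), lay across a control H3K27ac peak that had no butyrate counterpart on it, with the nearest butyrate H3K27ac peak at 2.40 kb. The third, chr7:62554031-62555647 (1617 bp), had the same arrangement, with a butyrate H3K27ac peak at 2.29 kb. A control Pol II peak also met chr7:15841666-15843270 (1605 bp) and chr7:38949697-38951158 (1462 bp), and both lay further than 5 kb from any acetyl peak. No peak of the other lists met chr2:115083179-115084727 (1549 bp), chr20:67012912-67014453 (1542 bp) or chr11:14002189-14003704 (1516 bp), although the first of these lay 0.744 kb from a control H3K9ac peak. At chr16:34680978-34682424 (1447 bp) both acetyl marks overlapped after butyrate and neither did in control, although a control H3K9ac peak lay 0.035 kb away. At chr28:17933876-17935280 (1405 bp) both acetyl marks overlapped in control, and H3K27ac alone after butyrate. 

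Long new peaks lay near acetylated chromatin more often than short new peaks did. A butyrate H3K27ac peak lay within 10 kb of 1063 of them, or 51.0% (interval, 48.8 to 53.1), against 29.5% (29.2 to 29.9) of short new peaks and 30.6% of all butyrate H3K9me3 peaks. The share was higher for long than for short new peaks on 27 of 27 chromosomes, and on autosomes it ran from 29.2% to 68.0% for long and from 19.2% to 36.0% for short new peaks. Untreated cells had acetyl peaks near these places as well. Control H3K27ac peaks lay within 10 kb of 925 long new peaks, or 44.4% (42.2 to 46.5), against 26.5% of short new peaks and 27.5% of all, again on 27 of 27 chromosomes. Butyrate H3K9ac lay within 10 kb of 50.7% (48.6 to 52.9) of long and 34.0% of short new peaks, with 34.9% for all. Control H3K9ac lay that near to 38.7% (36.6 to 40.8) of long and 21.6% of short new peaks, with 22.6% for all.

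Pol II followed the same order in control, with a smaller difference. Control Pol II peaks lay within 10 kb of 48.6% of long and 38.1% of short new peaks, with 39.1% for all butyrate H3K9me3 peaks. Medians of the distance to the nearest peak gave the same picture. Long new peaks lay 9.57 kb (interval, 8.60 to 10.6) from butyrate H3K27ac and short new peaks 34.2 kb (33.5 to 35.0). From control H3K9ac the medians were 17.2 kb (15.8 to 19.3) for long and 54.3 kb (53.2 to 55.4) for short new peaks. A minority lay far from both acetyl marks, as 326 long new peaks (15.6%; interval, 14.1 to 17.3) had no butyrate acetyl peak within 50 kb. This share was not computed for short new peaks, but each mark alone was that near to fewer of them. Butyrate H3K27ac lay within 50 kb of 79.6% of long and 56.8% of short new peaks, and butyrate H3K9ac of 81.3% and 60.8%.

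The share near acetyl peaks rose with the length of the H3K9me3 peak, below the 500 bp limit as well as above it. Within 10 kb of butyrate H3K27ac lay 26.99% of new peaks at the smallest length in the list (199 bp), 31.9% of those from 300 bp to below 400 bp and 37.9% (interval, 36.3 to 39.6) of those from 400 bp to below 500 bp. Above the limit the share was 46.2% (43.2 to 49.2) in the class starting at 500 bp, 50.8% in that starting at 600 bp, 57.8% at 700 bp, 61.5% at 800 bp and 73.3% (63.1 to 81.5) in the 86 peaks of at least 1000 bp. Intervals of neighbouring classes above 500 bp overlap, whereas the lowest and the highest class are far apart. The 500 bp limit therefore falls on a gradient and not at a step. Control H3K9ac, the mark on the same lysine, went from 19.4% in the shortest class to 58.1% (47.6 to 68.0) at 1000 bp or more.

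**Figure D3:**
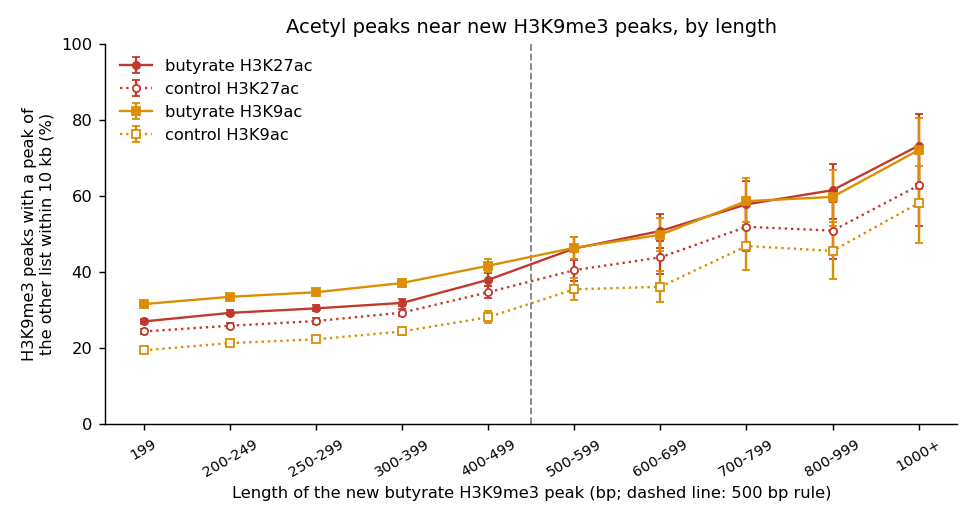
Points give the percentage of new butyrate H3K9me3 peaks in each length class (bp) with a peak of the named acetyl list within 10 kb, with 95% Wilson intervals, and the dashed line marks the 500 bp limit. All 4 lines climb from left to right, that of butyrate H3K27ac from 26.99% to 73.3%.

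Acetyl coverage around long new peaks was lower at 0.5 to 1 kb from the midpoint than both at the centre and further out. Around the midpoints of long new peaks, butyrate H3K27ac peaks covered 5.22% of bases at distances of 3 to 20 kb, against 2.90% around short new peaks and 2.99% of the 27 chromosomes as a whole. They covered 4.16% of the innermost 0.25 kb. In between, at 0.5 to 1 kb, they covered 2.55%, and this was below the 3 to 20 kb level on 25 of 27 chromosomes. Control H3K27ac fell from 3.05% to 1.10% between the same distances, on 26 of 27 chromosomes. For H3K9ac the drop was from 2.49% to 0.931% in control and from 2.49% to 0.981% after butyrate, on 25 of 27 chromosomes in each. At the centre, the innermost 0.25 kb, coverage was 2.16% for control H3K27ac, 1.58% for control H3K9ac and 1.69% for butyrate H3K9ac, against 1.38%, 1.05% and 1.35% over all 27 chromosomes. Coverage at 0.5 to 1 kb lay below the level of the chromosomes as a whole for both acetyl marks in both conditions. Further out the higher coverage was wide, and butyrate H3K27ac still covered 4.61% at 100 to 200 kb from long new peaks and 3.41% from short ones. A dip of this kind was also present around short new peaks, where butyrate H3K9ac covered 1.10% at 0.5 to 1 kb and 1.52% at 3 to 20 kb. In the 3 to 20 kb range, coverage around long new peaks was 1.90 times that around short new peaks for both acetyl marks in control, 1.64 times for butyrate H3K9ac and 1.80 times for butyrate H3K27ac, with long above short on 26 or 27 chromosomes in each list.

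Pol II in control had no such dip. It covered 3.76% of the innermost 0.25 kb around long new peaks, 0.898% at 0.5 to 1 kb and 0.674% at 3 to 20 kb, and 0.5 to 1 kb lay below the outer range on only 9 of 27 chromosomes. Butyrate Pol II covered less, at 0.387% and 0.525% for these distances, and the inner value was the lower one on 21 of 27 chromosomes.

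**Figure D4:**
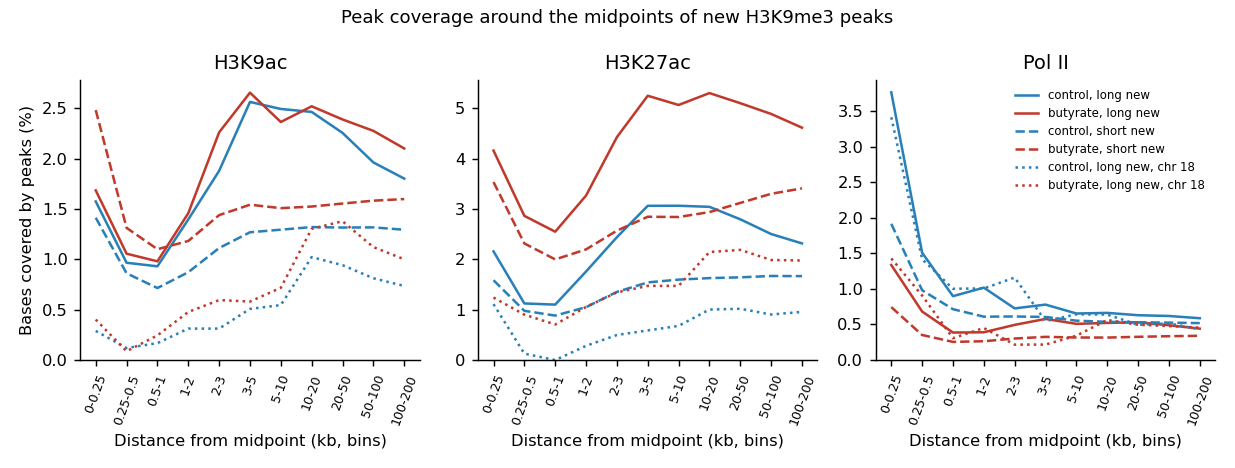
Lines give the percentage of bases under peaks of H3K9ac, H3K27ac and Pol II (1 panel each) in bins of distance in kb from the midpoints of long new peaks (solid), short new peaks (dashed) and long new peaks of chromosome 18 (dotted), in blue for control and red for butyrate lists. Both acetyl marks dip at 0.5 to 1 kb from long new peaks and are higher from 3 kb outward. Butyrate H3K27ac is at 5.22% over 3 to 20 kb and at 4.61% at 100 to 200 kb.

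As a log2 ratio, the gain of acetyl coverage after butyrate was smaller near long new peaks than over the chromosomes as a whole. In the 172.6 Mb within 50 kb of them, H3K9ac coverage was 2.09% in control and 2.29% after butyrate, a log2 ratio of 0.13 against 0.37 over all 27 chromosomes. H3K27ac coverage was 2.58% and 4.79%, a log2 ratio of 0.89 against 1.11. Over all 27 chromosomes H3K9ac coverage went from 1.05% to 1.35% and H3K27ac coverage from 1.38% to 2.99%. In percentage points the H3K9ac rise was thus smaller near long new peaks, and the H3K27ac rise larger. Pol II coverage fell by 0.37 on the log2 scale, from 0.664% to 0.513%, against a log2 ratio of -0.59 over all. Around short new peaks the log2 ratios were 0.38, 1.09 and -0.66. These ratios come from 1 pair of libraries per mark, and no interval over replicates could be set on them. Coverage depends on how many peaks each library yielded, and the part of this in the ratios was not tested.

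Direct contact with a peak of another list was uncommon. Of the 2085 long new peaks, 1605 (77.0%) were met by none of the other 6 lists, 335 by 1, 88 by 2, 37 by 3 and the rest by 4 or more. This count over lists was not made for short new peaks, which each list except butyrate H3K9ac met less often. Control Pol II met the most, 205 or 9.83% (interval, 8.63 to 11.2), against 3.93% of short new peaks and 4.60% of all butyrate H3K9me3 peaks. Of the members met by control Pol II, 159 met no acetyl peak of any list, a count not made for short new peaks. Butyrate H3K27ac met 178, or 8.54% (7.41 to 9.81), against 5.17% of short new peaks and 5.49% of all. Control H3K27ac met 104, or 4.99%, against 2.69% and 2.95%, and control H3K9ac met 69, or 3.31%, against 2.25% and 2.45%. Butyrate Pol II met 71, or 3.41%, against 1.47% and 1.79%. Butyrate H3K9ac was the list for which long new peaks did not stand higher, with 84 or 4.03% (3.27 to 4.96) against 4.28% (4.13 to 4.44) of short new peaks and 4.44% of all.

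A longer peak meets others more readily by its length alone, so the base at the midpoint was compared as well. By this measure 1.77% (interval, 1.29 to 2.44) of long new peaks had their midpoint in a butyrate H3K9ac peak, below the 3.096% (2.97 to 3.23) of short new peaks. For butyrate H3K27ac the shares were 4.22% and 4.17%, and for control H3K9ac 1.68% and 1.67%, and for both the higher overlap by 1 bp was not seen at the midpoint. Long stood above short with overlapping intervals for control H3K27ac, at 2.45% (1.87 to 3.20) against 1.91% (1.81 to 2.02), and for butyrate Pol II, at 1.25% (0.852 to 1.82) against 1.01% (0.933 to 1.08). Control Pol II was higher with intervals apart, at 4.12% (3.35 to 5.07) against 2.45% (2.34 to 2.57). When an overlap had to cover at least 50% of the H3K9me3 peak, long new peaks fell below short ones for all 6 lists, with 3.26% against 4.20% for butyrate H3K27ac and 0.959% against 2.42% for control Pol II. Median lengths were 592 bp for long and 226 bp for short new peaks, so 50% asked for more covered bases of long ones. That lowers the share of long new peaks by construction, and the order by this measure cannot be read apart from length.

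**Figure D5:**
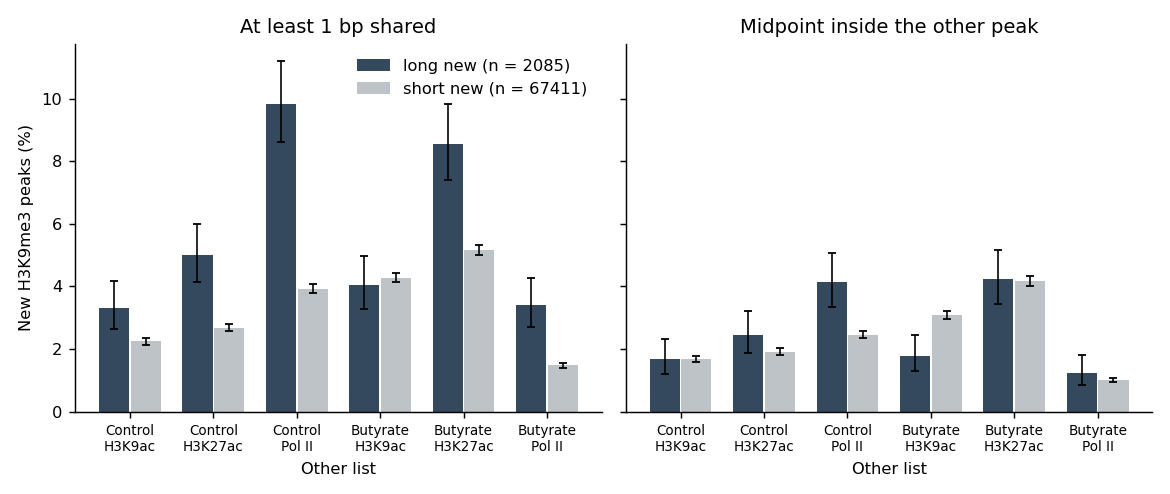
Bars give the percentage of long new (dark) and short new (light) H3K9me3 peaks that share at least 1 bp with a peak of each other list (left) or have their midpoint inside one (right), with 95% Wilson intervals. By midpoint the bars of butyrate H3K9ac stand at 1.77% for long and 3.096% for short new peaks.

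The long new peaks met by a mark were only in part the same in both conditions. H3K9ac overlapped 50 of them in control only, 65 after butyrate only and 19 in both. H3K27ac overlapped 56 in control only, 130 after butyrate only and 48 in both. Pol II overlapped 184 in control only, 50 after butyrate only and 21 in both, in lists that themselves shrank from 43779 to 25967 peaks. Of the long new peaks met in control, 27.5% (interval, 18.4 to 39.0) were also met after butyrate for H3K9ac, against 48.4% (45.8 to 50.9) of short new peaks. For H3K27ac these shares were 46.2% (36.9 to 55.7) and 54.4% (52.1 to 56.7), and their intervals overlap. For Pol II they were 10.2% (6.80 to 15.2) and 4.002% (3.32 to 4.82). Taking both acetyl marks together, 291 long new peaks (13.96%; interval, 12.5 to 15.5) met an acetyl peak in at least one condition, and 74 (3.55%) met one in control only. Both marks overlapped 30 in control, and 8 of these met neither after butyrate. Conversely both marks overlapped 45 after butyrate, of which 22 met neither in control. These combined counts were not made for short new peaks or for all butyrate H3K9me3 peaks. Whether they are particular to long new peaks was therefore not tested.

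Among those 8, the 3 longest, chosen after their values were seen, carried both acetyl marks in control, and an H3K9me3 peak with neither acetyl mark after butyrate. At chr1:90067785-90068515 (731 bp), H3K9ac covered 71.7% and H3K27ac 23.7% of the later H3K9me3 peak in control, and after butyrate the nearest peak of each mark lay 1.29 kb away. At chr15:39755284-39755965 (682 bp) the control shares were 32.3% and 29.2%, and at chr1:149813776-149814381 (606 bp) they were 36.1% and 32.01%. Butyrate acetyl peaks remained within 3 kb of all 3.

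Seen from the acetyl lists, 72 control H3K9ac peaks overlapped a long new H3K9me3 peak, and 21 of them (29.2%; interval, 19.9 to 40.5) still overlapped an H3K9ac peak after butyrate. This compares with 48.3% of all control H3K9ac peaks and 52.5% (50.02 to 55.03) of those overlapping a short new peak. Of 108 control H3K27ac peaks on long new peaks, 43 (39.8%; 31.1 to 49.2) met an H3K27ac peak after butyrate, against 66.0% of all and 56.3% (54.0 to 58.5) of those on short new peaks. These acetyl peaks were short, with medians of 279 bp for H3K9ac and 238 bp for H3K27ac, against 300 and 288 bp in the whole lists. Among all control peaks of no more than those median lengths, 34.7% of H3K9ac and 48.8% of H3K27ac peaks were still met after butyrate, and both values fall inside the intervals for the peaks on long new H3K9me3 peaks. These comparison peaks were shorter again, with medians of 225 bp for H3K9ac and 203 bp for H3K27ac. Lengths were thus not matched, and the part of length in the lower shares was not tested. For Pol II, 17 of 210 control peaks on long new peaks (8.10%; 5.12 to 12.6) were met after butyrate, against 3.90% of all.

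The opposite extreme was a small set of places where every antibody gave a peak. In 3 long new peaks all 6 other lists overlapped, and in a further 3 peaks 5 lists did. How many short new peaks were met by as many lists was not counted. At chr24:47068967-47069896 (930 bp), butyrate H3K27ac covered 100% and butyrate H3K9ac 69.2% of the H3K9me3 peak, against 36.1% and 36.6% for the same marks in control. At chrX:118742966-118743495 (530 bp) both acetyl marks covered 100% in both conditions. At chr1:149645723-149646247 (525 bp) butyrate H3K27ac covered 100% and butyrate H3K9ac 44.2%, where control peaks of each had covered 100%. The longest of the peaks met by 5 lists, chr10:30090542-30091487 (946 bp) and chr12:49338576-49339457 (882 bp), had control Pol II as the missing list, at 30.6 and 17.1 kb.

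Within their own list, long new peaks had more company than short ones. A median of 2 other butyrate H3K9me3 peaks lay within 10 kb of a long new peak and 1 of a short new peak, and the median within 50 kb was 6 against 4. No other butyrate H3K9me3 peak lay within 10 kb of 395 long new peaks (18.9%; interval, 17.3 to 20.7), against 39.0% of short new peaks. Control H3K9me3 peaks were also nearer, at a median of 25.3 kb (23.0 to 27.4) against 38.5 kb (38.0 to 39.0). A control H3K9me3 peak lay within 1 kb of 142 long new peaks (6.81%; interval, 5.81 to 7.97), against 3.63% (3.49 to 3.78) of short new peaks. Control H3K9me3 peaks covered 0.954% of bases at 0.5 to 1 kb from the midpoints and 0.352% at 10 to 20 kb, against 0.183% over the 27 chromosomes. The control H3K9me3 list was part of the rule, which removed overlap with it but set nothing about distance beyond that.

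The long new peaks of chromosome 18, which the rule left out, had a different setting. There were 242 of them, with a median of 7 other butyrate H3K9me3 peaks within 10 kb and 26 within 50 kb, against 2 and 6 for the 2085 peaks elsewhere. Butyrate H3K27ac lay within 10 kb of 34.3% (interval, 28.6 to 40.5) of them against 51.0% elsewhere, and butyrate H3K9ac of 28.1% (22.8 to 34.1) against 50.7%. In the range of 3 to 20 kb, butyrate H3K27ac covered 1.87% on chromosome 18 and 5.22% elsewhere. Butyrate H3K27ac coverage was also lower around the chromosome 18 peaks at 100 to 200 kb, with 1.98% against 4.61%, so the difference was not limited to short range. Within 50 kb most peaks of both sets had a butyrate H3K27ac peak, 81.0% on chromosome 18 and 79.6% elsewhere. The 538 long new peaks of chromosomes 5 and 14, also left out, met control Pol II in 27.9% (24.3 to 31.8), against 9.83% elsewhere. Control Pol II peaks also covered 1.71% of bases at 100 to 200 kb from them, against 0.588% around the 2085 peaks, so Pol II peaks were denser in the wider surroundings there as well.

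Among steps of 10% along the chromosomes, the last held the largest share of long new peaks. In the last 10% of their chromosome lay 287, or 13.8% (interval, 12.4 to 15.3), against 11.7% of short new peaks and 11.7% of all butyrate H3K9me3 peaks, and long stood above short on 20 of 27 chromosomes. New peaks from 400 bp to below 500 bp had 14.3% (13.1 to 15.5) there. The first 10% held 8.54% (7.41 to 9.81) of long and 9.40% of short new peaks. The excess at the far end was not seen in the 86 peaks of at least 1000 bp, of which 3.49% (interval, 1.19 to 9.76) lay there. That share rests on few peaks.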

How the data were processed

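Peak lists from 8 ChIP-seq libraries of MDBK cells were analysed, with groups taken from their labels. As the study describes, the authors aligned reads of 75 nt with BWA, kept uniquely placed reads and called peaks in each library with MACS2 at default settings, against 1 shared input library. Per the labels, Trim Galore 0.4.1 was used and the build was UMD3.1. The deposited lists give peak positions alone (chromosome, start, end), without height, score or depth. Starts were taken to be counted from 0, so printed starts are higher by 1. The shortest end minus start was 199 bp, so starts may be counted from 1, which would add 1 bp to each length. The gene table at hand used another assembly, so no gene was named and no sequence printed.

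Overlap meant at least 1 bp, unless stated, and distances were taken edge to edge. The furthest peak end of all lists stood for chromosome length, and these ends summed to 2388 Mb. Shares had Wilson intervals, counts exact Poisson intervals and medians exact binomial intervals, at 95%. Named regions were the 10 longest, the 5 fullest windows, the 5 fullest clusters with ties and the 5 met by most lists. The procedures were tested on simulated intervals. The members, lists and comparisons were chosen with earlier results of these data known. Alternatives were a minimum of 1000 bp, no control peak within 1 kb, joining of butyrate H3K9me3 peaks less than 1 kb apart, autosomes only, starts counted from 1, an overlap of 50%, a reach of 50 kb, distances from midpoints, and only those short peaks that reached 400 bp. Those for the share within 10 kb of butyrate H3K27ac were added after seeing the data. Python 3.11.15, numpy 2.4.6, pandas 2.3.3, scipy 1.17.1 and matplotlib 3.10.9 were used.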

Additional observations from a re-analysis of the deposited data

How the results depend on the processing

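No paired analysis was possible because groups consisted of 1 library, and for the same reason none could be left out. Of 117 alternative values, 77 stayed inside the interval of the reported value and 40 moved. With a minimum of 1000 bp there were 86 long new peaks, with a median of 1129.5 bp, the highest relative density 3.70 (on chromosome 7), 15.04 kb to control H3K9me3, 3.49% in the last 10% of the chromosome, 4.65% with another within 10 kb, 73.3% within 10 kb of butyrate H3K27ac, and overlap of 22.1% for butyrate H3K27ac, 11.6% for control H3K27ac, 20.9% for control Pol II and 5.81% for butyrate Pol II. Joining gave 6636 long new peaks, with a median of 974 bp, 31.7 kb to control H3K9me3, 1 other peak within 10 kb, 5.67% overlapped by butyrate H3K9ac and 39.6% within 10 kb of butyrate H3K27ac, against 4.58% and 27.3% of short new peaks, of which control Pol II met 3.72%; chromosome 15 was then densest. Without control H3K9me3 peaks within 1 kb the distance was 28.6 kb, 16.2% had another within 10 kb, and 29.0% of short new peaks lay within 10 kb of butyrate H3K27ac. Within 50 kb, 29.7% had another, the median of other peaks was 6, and butyrate H3K27ac was present for 79.6% of long and 56.8% of short new peaks. Short peaks that reached 400 bp gave 37.9%. An overlap of 50% gave, for long and short new peaks, 1.15% and 1.69% with control H3K9ac, 1.15% and 1.91% with control H3K27ac, 0.959% and 2.42% with control Pol II, 1.10% and 3.09% with butyrate H3K9ac, 3.26% and 4.20% with butyrate H3K27ac, and 0.528% and 0.986% with butyrate Pol II, which put long below short in all 6 lists and so turned the order of long and short in the 5 lists other than butyrate H3K9ac. An overlap of 50% asks for more covered bases of a longer peak, which by construction lowers the share of long new peaks. The cause of these moves was not tested beyond what each alternative changes by construction. Peak heights and read depth were not used here, so weak and strong peaks of one length could not be told apart.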

Other observations

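Acetyl peaks beside long new H3K9me3 peaks were shared with control about as often as those of the whole butyrate lists, whose shares lie inside the intervals. Of the butyrate H3K9ac peaks nearest to long new peaks, within 10 kb and without overlap, 29.7% (interval, 26.9 to 32.6) also overlapped a control H3K9ac peak, against 22.3% of those nearest to short new peaks and 32.1% of the whole butyrate H3K9ac list. For H3K27ac the shares were 31.1% (28.1 to 34.2), 28.9% and 31.9%. The 348 long H3K9me3 peaks that met a control H3K9me3 peak were met more often than long new peaks by each of the other 6 lists. Control Pol II met 26.7% (22.3 to 31.6) of these kept peaks against 9.83% of the long new peaks, and control H3K9ac met 7.47% (5.15 to 10.7) against 3.31%. Kept peaks were also longer, with a median of 661.5 bp against 592 bp. At the midpoint, control Pol II stood at 14.7% (11.3 to 18.8) of kept and 4.12% (3.35 to 5.07) of long new peaks. Control H3K9ac stood there at 3.45% (1.98 to 5.93) and 1.68% (1.21 to 2.33), with overlapping intervals. Within 10 kb, butyrate H3K27ac was present for 56.6% (51.4 to 61.7) of kept and 51.0% (48.8 to 53.1) of long new peaks, and these intervals overlap.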
